A study of Homo sapiens with 12 samples.

Results

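Topoisomerases cut and rejoin DNA to release the strain that replication and transcription put into the double helix, and the tyrosyl-DNA phosphodiesterases TDP1 and TDP2 clear the enzyme when it stays stuck to the cut. Transcripts of 8 such genes were followed in KYSE70 cells, an established human esophageal squamous cell carcinoma line. They were taken by gene symbol from the deposited table of normalized counts, which holds 58884 genes, and each symbol matched 1 row. The genes were TOP1, TOP1MT, TOP2A, TOP2B, TOP3A, TOP3B, TDP1 and TDP2, and all 8 passed the filter on low values. Total RNA was sequenced from cells given 20 nM mitoxantrone (MIT, 4 libraries), from cells given 10 µM pyrimethamine (PYR, 4 libraries), both over 72 h, and from cells without treatment (control, 4 libraries). The series title calls both drugs inhibitors of NRF2. Every library came from the same line, and the labels name no vehicle for the control and do not say whether replicates were separate cultures. The p-values therefore measure only the spread between these libraries, which may be technical.

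Human topoisomerases fall into families by how they cut. Type II enzymes, TOP2A and TOP2B, cut both strands and pass another duplex through the gap. TOP2A serves dividing cells and peaks late in the cell cycle, when sister chromosomes are untangled, whereas TOP2B is also made in resting cells and acts at transcribed genes and loop anchors. Type IB enzymes, nuclear TOP1 and mitochondrial TOP1MT, nick a single strand and let the helix swivel. Type IA enzymes, TOP3A and TOP3B, pass a single strand through another. A drug that poisons an enzyme of this kind traps it on DNA through a bond between a tyrosine and the DNA end. TDP1 acts chiefly on such bonds left by TOP1, and TDP2 chiefly on those left by type II enzymes. Mitoxantrone is a DNA intercalator and a poison of both type II enzymes, and pyrimethamine is an antifolate that inhibits dihydrofolate reductase.

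The libraries held 47465335 to 94516756 reads assigned to genes, and each of the 8 genes had at least 1008 reads in every library. Among squamous markers, KRT5, KRT6A, SFN, TP63, DSG3 and SOX2 were abundant in every library. KRT5 was at 206349 or more and TP63 at 12233 or more normalized counts. Lower were KRT17, at 425 to 862, and the basal keratin KRT14, at 101 to 187. Of 12 markers of fibroblasts, leukocytes and endothelium, 9 reached at most 29.4 normalized counts in any library, the highest of these being the leukocyte gene PTPRC. The fibroblast gene PDGFRB reached 19.4 and the endothelial gene CDH5 7.27, while COL1A1, COL3A1 and VWF were at 3872, 1274 and 174 or more in all. The mitochondrial genome took 3.71% ± 0.321 of reads under MIT, 7.65% ± 0.621 under PYR and 6.43% ± 0.230 in the control (SD, n = 4 each). MIT replicate 1 stood apart on this measure at 3.23%. It also stood apart over all genes, with a mean chi-square per gene of 30.6 to 44.1 against the other MIT libraries, where all other pairs of replicates had 6.42 to 15.6. The same library gave the highest value of its group for 7 of the 8 genes, so results that turn on it are given without it too. In bulk RNA, fewer cells of a kind and less RNA per cell cannot be told apart.

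The stretches before the starts of TOP2A and TOP2B are shown because these 2 genes are the targets of mitoxantrone and went apart under pyrimethamine. The letters are from RefSeq on GRCh38.p14, read 5′ to 3′ along the gene, with capitals for the CCAAT box bound by NF-Y, which reads ATTGG from the other strand, and for TTTGAA, a form of the cell cycle homology element that reads TTCAAA from the other strand.

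TOP2A, chr17:40417951-40418146, minus strand: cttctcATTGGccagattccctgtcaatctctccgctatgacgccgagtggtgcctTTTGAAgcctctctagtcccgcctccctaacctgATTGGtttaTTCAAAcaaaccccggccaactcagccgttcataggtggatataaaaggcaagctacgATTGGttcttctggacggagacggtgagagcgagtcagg

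TOP2B, chr3:25664908-25665157, minus strand: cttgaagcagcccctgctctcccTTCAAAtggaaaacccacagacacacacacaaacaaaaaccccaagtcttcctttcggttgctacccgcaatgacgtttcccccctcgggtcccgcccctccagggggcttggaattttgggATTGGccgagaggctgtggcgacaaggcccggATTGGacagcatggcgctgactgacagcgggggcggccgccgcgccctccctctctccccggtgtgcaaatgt

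The TOP2A stretch ends just before the start that GENCODE 29 gives, which lies upstream of the RefSeq start at 40417896. Over the 250 bases before the RefSeq start, TOP2A held 4 CCAAT boxes, of which 3 are in the stretch shown, and 2 copies of TTTGAA. Of 35116 RefSeq windows of the same length, 0.874% held at least 4 CCAAT boxes and 1.72% at least 2 copies of TTTGAA. TOP2B held 2 CCAAT boxes and 1 TTTGAA before its upstream start, where 9.53% of windows had at least 2 and 13.3% at least 1, and neither motif before a second start inside the gene. TOP1, TOP3A, TOP3B and TDP2 had neither motif in their windows, and TDP1 had 1 TTTGAA in its own. The GC box of SP1, searched as GGGCGG, stood in the windows of TOP2A, TOP2B, TOP1, TOP3A and TDP2, and in 42.6% of all windows. That of TOP2A lay 31 to 36 bases before the RefSeq start, downstream of the GENCODE 29 start. TGACNNNGC, the core of the antioxidant response element that NRF2 binds, occurred once each before TOP1 and TDP2 and in 10.9% of all windows. The TDP2 window was mostly annotated exon of TDP2 or the neighbouring gene ACOT13 (249 of 250 bases). The TOP2B stretch shown held 32 annotated exon bases, those of the microRNA gene MIR4442. All motifs were searched on both strands and did not overlap one another in the TOP2A and TOP2B stretches. RefSeq windows were at hand for 7 of the 8 genes, all but TOP1MT.

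Under mitoxantrone, TDP1, TOP2B, TDP2, TOP1MT and TOP2A were called higher than in the control on the deposited scale, in order of size. TOP2A was not called with equal library totals or after quantile normalization. On the deposited scale TOP3B was the only one of the 8 called lower. Under pyrimethamine the set split, with TOP2A and TDP1 higher and TOP2B, TOP1, TOP1MT, TOP3A and TDP2 lower. In limma's test over all 16950 genes that passed the filter, at an adjusted p under 0.05, 5 of the 8 were higher with MIT, 1 was lower and 2 were not called, where 69.3% of all tested genes were called, 33.5% higher and 35.8% lower. With PYR, 2 were higher, 5 lower and 1 not called, where 53.3% of all genes were called, 26.4% higher and 26.9% lower. Without MIT replicate 1, 7 were called with MIT, the seventh being TOP3A, lower. MIT against PYR gave 6 higher and 2 lower, where 76.4% of all genes were called, 36.9% higher and 39.5% lower. The 4 libraries of a drug and the 4 controls did not overlap for 7 of the 8 genes with either drug, as for 60.9% of all genes with MIT and 51.1% with PYR. MIT and PYR libraries did not overlap for any of the 8, as for 68.8% of all genes. The median size of the log2 change, without its sign, was 0.33 over the 8 genes and 0.38 over all genes with MIT. With PYR it was 0.34 over the 8 genes and 0.26 over all genes. Scaled to equal library totals, the calls among all genes for MIT were 4420 higher and 7210 lower, and on the deposited scale 5681 higher and 6064 lower. For PYR they were 3647 higher and 5506 lower with equal totals, and 4477 higher and 4565 lower on the deposited scale.

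**Figure D1:**
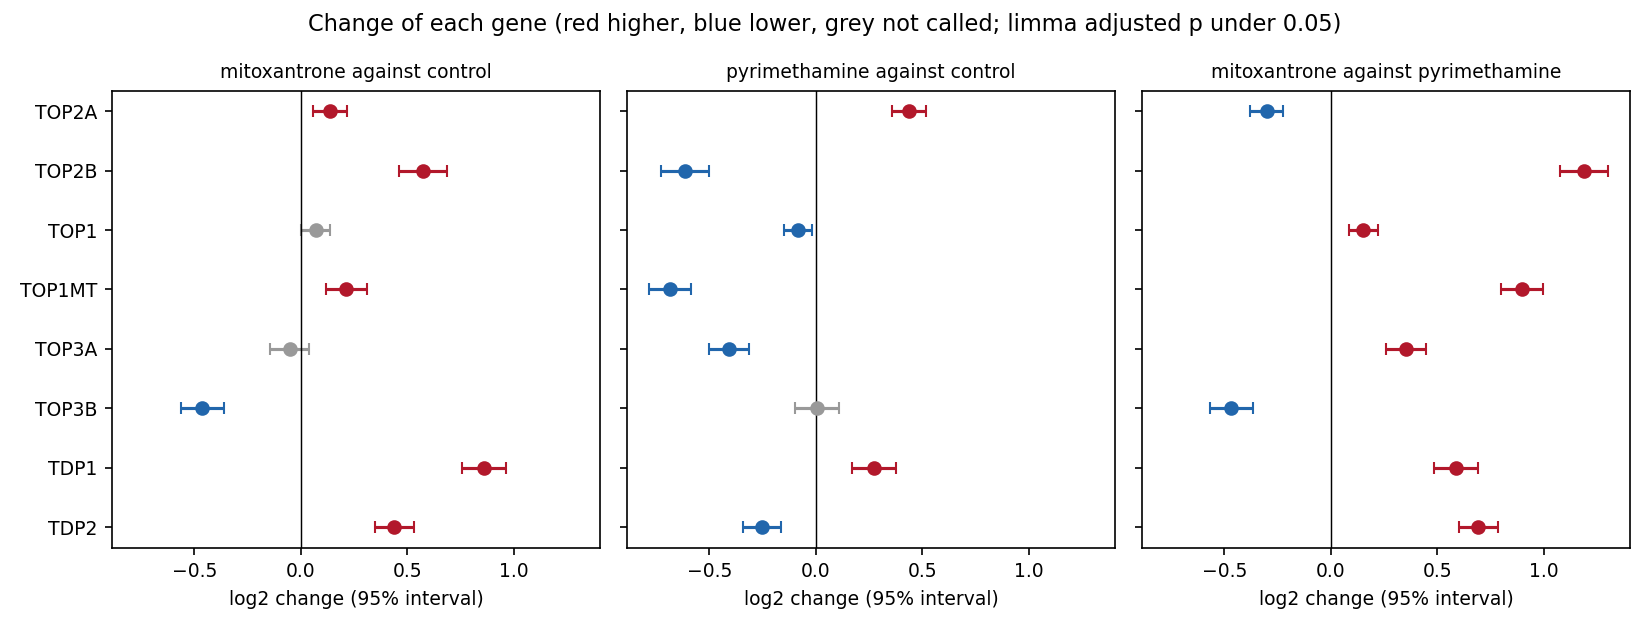
Log2 change of each gene with its 95% interval (n = 4 libraries a group), in 3 panels: mitoxantrone against control, pyrimethamine against control and mitoxantrone against pyrimethamine; red is higher, blue lower and grey not called by limma at an adjusted p under 0.05. TOP2B lies right of 0 with mitoxantrone (0.57) and left of it with pyrimethamine (-0.61), while TOP2A lies right of 0 with both (0.14 and 0.44).

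TOP2A, on chromosome 17 at 40388516 to 40417950 of GRCh38 (minus strand), was higher with both drugs on the deposited scale. Its normalized counts were 30074, 26635, 27631 and 27014 in MIT replicates 1 to 4, 33649, 35150.4, 33732 and 34593 in PYR replicates and 25737, 25015, 25748 and 24769 in control replicates. All PYR libraries lay above all MIT libraries, and all of these above the control, with no overlap. Means were 27838 ± 1546 under MIT, 34281 ± 719 under PYR and 25317 ± 501 in the control (SD, n = 4 each). TOP2A rose 1.35-fold with PYR, a log2 change of 0.44 (SE 0.0382, limma adjusted p = 4.74e-09). With MIT it was 1.10-fold higher, a log2 change of 0.14 (SE 0.0382, limma adjusted p = 0.00356). That smaller call was lost with equal library totals (0.034, limma adjusted p = 0.461) and after quantile normalization (0.0086, limma adjusted p = 0.852, the highest over all alternatives), and the change was 0.10 without MIT replicate 1 (adjusted p = 0.00862).

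TOP2B, on chromosome 3 at 25597905 to 25664907 (minus strand), moved in opposite directions with the 2 drugs. Normalized counts were 17298, 14428, 14711 and 14369.7 in MIT replicates 1 to 4, 6354, 7222, 6509 and 6544 in PYR replicates and 10756, 10289, 10103 and 9617 in control replicates. MIT libraries were all above the control and PYR libraries all below it, and MIT replicate 1 was far above the rest of its group. The means of 15202 ± 1406 under MIT and 6657 ± 385 under PYR stood on either side of 10191 ± 471 in the control (SD, n = 4 each). TOP2B was 1.49-fold higher with MIT (log2 change 0.57, SE 0.0535, limma adjusted p = 4.58e-09), and 0.51 on the log2 scale without MIT replicate 1. It was 1.53-fold lower with PYR (log2 change -0.61, SE 0.0535, limma adjusted p = 4.45e-09). Between the drugs, TOP2B was 2.28-fold higher with MIT than with PYR (log2 change 1.19, limma adjusted p = 1.17e-14), the largest of the 8 changes in that comparison, and larger than those of 79.4% of all tested genes.

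**Figure D2:**
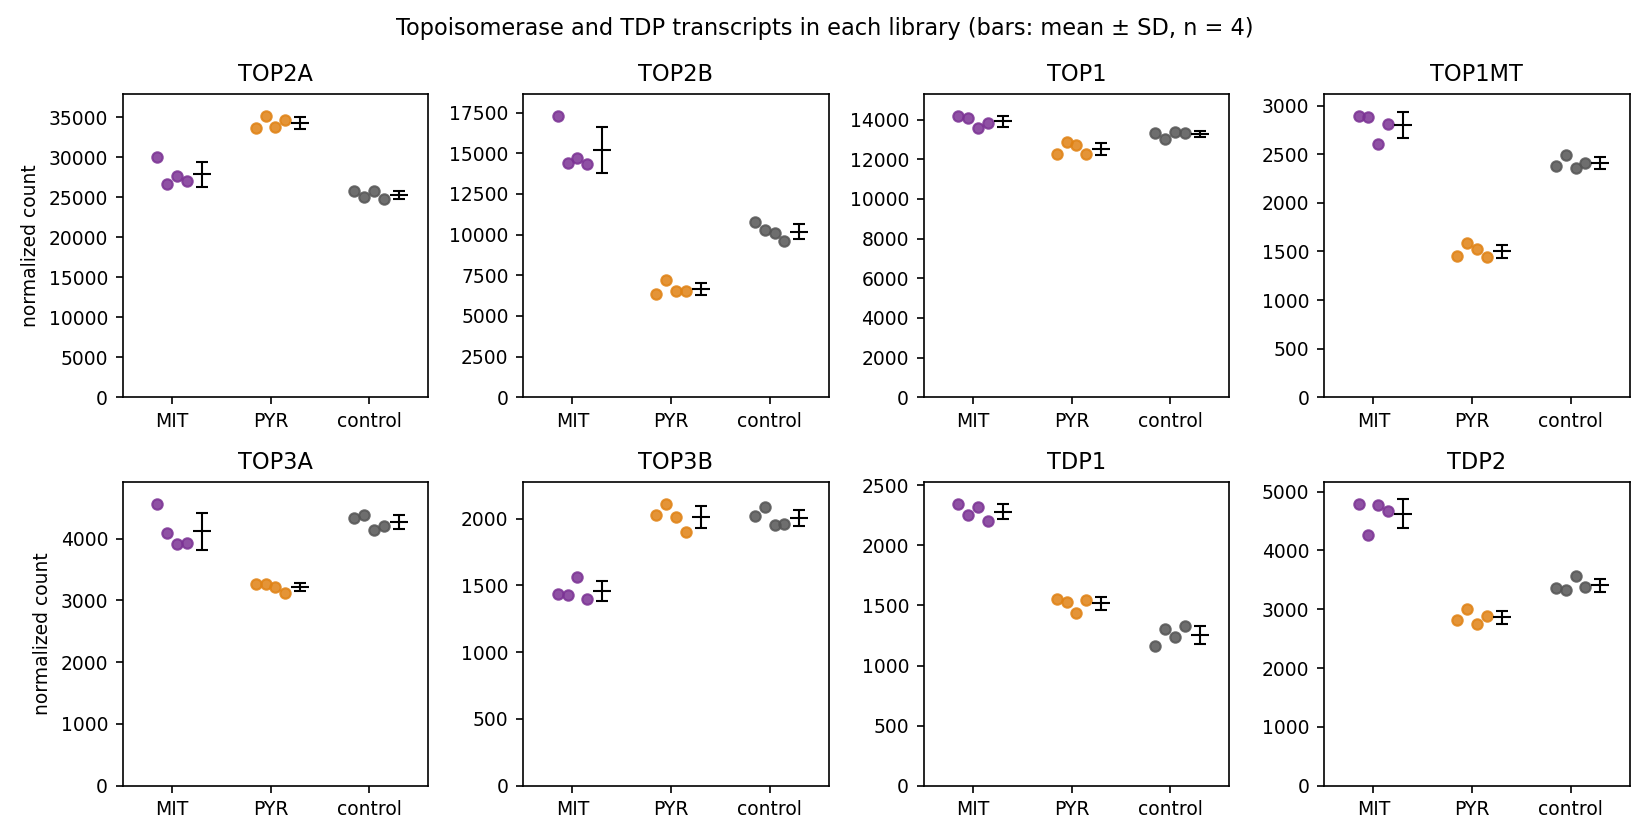
Normalized counts of each gene (vertical axis, from 0) in the 4 libraries of mitoxantrone (MIT), pyrimethamine (PYR) and the control; points are libraries and bars the mean ± SD. TOP2B averaged 15202 ± 1406 with MIT, 6657 ± 385 with PYR and 10191 ± 471 in the control, and TDP1 was highest with MIT.

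The ratio of 2 genes within a library does not depend on its size factor, and the balance of the type II genes was described that way, with count ratios read only between groups. TOP2A counts per TOP2B count were 1.74, 1.85, 1.88 and 1.88 in MIT replicates 1 to 4, 5.30, 4.87, 5.18 and 5.29 in PYR replicates and 2.39, 2.43, 2.55 and 2.58 in control replicates. The 3 groups did not overlap: the share of TOP2A was lowest with MIT and highest with PYR. Ratios averaged 1.84 ± 0.0666 with MIT, 5.16 ± 0.201 with PYR and 2.49 ± 0.0887 in the control (SD, n = 4 each). Per kilobase of annotated exon, TOP2A made up 63.3% ± 0.860 of the summed level of both genes with MIT, 82.9% ± 0.567 with PYR and 70.0% ± 0.750 in the control. No test was run on these ratios.

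**Figure D3:**
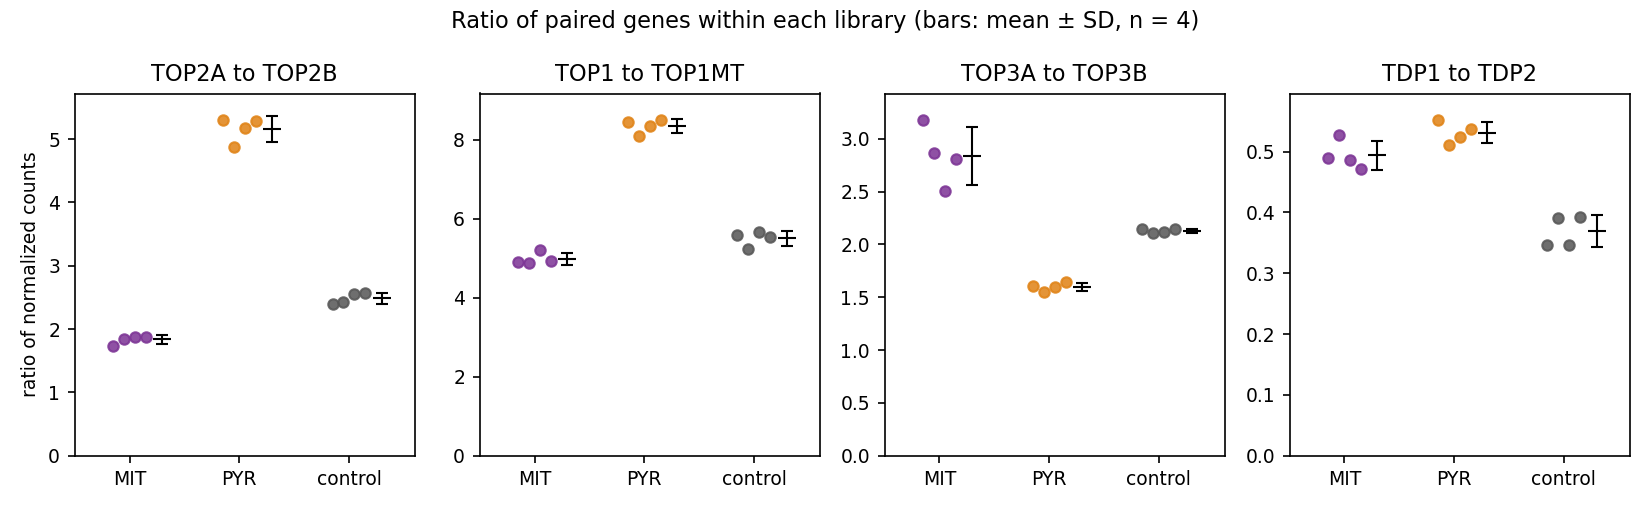
Ratio of normalized counts of 2 genes within each library (vertical axis, from 0) for TOP2A to TOP2B, TOP1 to TOP1MT, TOP3A to TOP3B and TDP1 to TDP2; points are the 4 libraries of mitoxantrone (MIT), pyrimethamine (PYR) and the control, and bars the mean ± SD. The TOP2A to TOP2B ratio lies at 1.74 to 1.88 with MIT, 4.87 to 5.30 with PYR and 2.39 to 2.58 in the control.

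TOP1, the nuclear type IB enzyme and the target of camptothecins, on chromosome 20 at 41028818 to 41124487 (plus strand), differed little between groups. Normalized counts were 14184, 14098, 13578 and 13822 in MIT replicates 1 to 4, 12245, 12871, 12714 and 12242 in PYR replicates and 13325, 13042, 13354 and 13335 in control replicates. The 3 groups were close yet did not overlap. Means were 13921 ± 276 with MIT, 12518 ± 323 with PYR and 13264 ± 148 in the control (SD, n = 4 each). With PYR it was 1.06-fold lower (log2 change -0.084, limma adjusted p = 0.0339), a call lost without the filter on low values (adjusted p = 0.0689) and when PYR replicate 1 or 4 or control replicate 1, 3 or 4 was left out (adjusted p = 0.0616 to 0.0949). With MIT the log2 change was 0.070 (95% interval 0.0023 to 0.14, limma adjusted p = 0.0614), not called, and it was negative with equal library totals (-0.031) and after quantile normalization (-0.029). Over all alternatives the adjusted p of TOP1 ran from 0.00101 to 0.0949 with PYR and from 0.0290 to 0.424 with MIT.

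TOP1MT, the type IB enzyme of mitochondrial DNA, on chromosome 8 at 143304384 to 143359979 (minus strand), went the same way as TOP2B with each drug. Normalized counts were 2894, 2884, 2608 and 2807 in MIT replicates 1 to 4, 1449.9, 1590.5, 1523 and 1442 in PYR replicates and 2382, 2492, 2361 and 2407 in control replicates. PYR libraries were lowest, MIT libraries highest and no groups overlapped. TOP1MT averaged 2798 ± 133 with MIT, 1501 ± 69.7 with PYR and 2411 ± 57.5 in the control (SD, n = 4 each). It was 1.61-fold lower with PYR (log2 change -0.68, SE 0.0468, limma adjusted p = 1.32e-10), the largest PYR change among the 8 and larger than those of 84.7% of all tested genes. With MIT it was 1.16-fold higher (log2 change 0.21, limma adjusted p = 0.000373). That rise was smaller with equal library totals (0.11, limma adjusted p = 0.0416), though still called. The share of reads on the mitochondrial genome had the reverse order over the groups, lowest with MIT and highest with PYR, and its part in this result was not tested. TOP1 counts per TOP1MT count averaged 4.98 ± 0.152 with MIT, 8.34 ± 0.177 with PYR and 5.51 ± 0.188 in the control (SD, n = 4 each).

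TOP3A, which works with the BLM helicase to undo joined DNA molecules and also serves mitochondria, lies on chromosome 17 at 18271428 to 18315007 (minus strand). Normalized counts were 4555, 4086, 3921 and 3929.8 in MIT replicates 1 to 4, 3266, 3263, 3224 and 3118 in PYR replicates and 4337, 4391, 4144 and 4206 in control replicates. PYR libraries all lay below the control, while MIT libraries overlapped it. TOP3A averaged 4123 ± 298 with MIT, 3218 ± 69.2 with PYR and 4269 ± 114 in the control (SD, n = 4 each). It was 1.33-fold lower with PYR (log2 change -0.41, SE 0.0450, limma adjusted p = 1.42e-07). With MIT the log2 change was -0.053 (95% interval -0.15 to 0.041, limma adjusted p = 0.306), not called. MIT was called lower without MIT replicate 1 (-0.10, limma adjusted p = 0.0219) and with equal library totals (-0.15, limma adjusted p = 0.00745), and its adjusted p over all alternatives ran from 0.00745 to 0.608.

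TOP3B, which acts on RNA as well as DNA, lies on chromosome 22 at 21957025 to 21982816 (minus strand). Normalized counts were 1435, 1425, 1565 and 1399.9 in MIT replicates 1 to 4, 2031, 2107, 2015 and 1900.0 in PYR replicates and 2019.6, 2086, 1953 and 1962 in control replicates. MIT libraries were all below the others, and PYR and control libraries overlapped. Means were 1456 ± 73.9 with MIT, 2013 ± 85.5 with PYR and 2005 ± 61.4 in the control (SD, n = 4 each). TOP3B was 1.38-fold lower with MIT (log2 change -0.46, SE 0.0488, limma adjusted p = 3.08e-08). With PYR the log2 change was 0.0055 (95% interval -0.10 to 0.11, limma adjusted p = 0.936), not called. An antisense gene, AC245452.1, overlaps 90.7% of the annotated exon bases of TOP3B, and the strand setting of the counting is not given in the sources used here. AC245452.1 had 7.42 to 14.3 normalized counts with MIT, 19.4 to 41.4 with PYR and 37.0 to 52.9 in the control. If strand was not used, reads over the overlap cannot be assigned to 1 of the 2 genes. The counts of TOP3B are therefore uncertain, as are its level per kilobase and its ratio to TOP3A. TOP3A counts per TOP3B count averaged 2.84 ± 0.274 with MIT, 1.60 ± 0.0382 with PYR and 2.13 ± 0.0197 in the control (SD, n = 4 each), without overlap between groups.

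TDP1, on chromosome 14 at 89954939 to 90044768 (plus strand), was higher with both drugs. Normalized counts were 2340.5, 2251, 2323 and 2205 in MIT replicates 1 to 4, 1553, 1530.4, 1440.1 and 1547 in PYR replicates and 1163, 1302, 1234 and 1328 in control replicates. The groups did not overlap, with MIT highest and the control lowest. TDP1 averaged 2280.1 ± 63.0 with MIT, 1518 ± 52.7 with PYR and 1257 ± 74.2 in the control (SD, n = 4 each). It rose 1.82-fold with MIT (log2 change 0.86, SE 0.0503, limma adjusted p = 2.53e-12), the largest MIT change against the control among the 8 and larger than those of 78.2% of all tested genes. It rose 1.21-fold with PYR (log2 change 0.27, SE 0.0503, limma adjusted p = 9.77e-05).

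TDP2, on chromosome 6 at 24649977 to 24667033 (minus strand), rose with MIT and fell with PYR. Normalized counts were 4781, 4263, 4775 and 4679 in MIT replicates 1 to 4, 2816, 2996, 2748 and 2881 in PYR replicates and 3354, 3327, 3561 and 3385 in control replicates. Each group kept clear of the others. Means were 4624 ± 245 with MIT, 2860.3 ± 105 with PYR and 3407 ± 105 in the control (SD, n = 4 each). TDP2 was 1.36-fold higher with MIT (log2 change 0.44, SE 0.0439, limma adjusted p = 1.28e-08) and 1.19-fold lower with PYR (log2 change -0.25, SE 0.0439, adjusted p = 5.13e-05). TDP1 counts per TDP2 count averaged 0.494 ± 0.0242 with MIT, 0.531 ± 0.0174 with PYR and 0.369 ± 0.0261 in the control (SD, n = 4 each). MIT and PYR libraries overlapped on this ratio, at 0.471 to 0.528 and 0.511 to 0.552, and both lay above the control, at 0.347 to 0.392.

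Set directly against pyrimethamine, mitoxantrone gave higher TOP2B, TOP1MT, TDP2, TDP1, TOP3A and TOP1 and lower TOP2A and TOP3B. The log2 change was 0.90 for TOP1MT (limma adjusted p = 1.44e-13), 0.69 for TDP2 (limma adjusted p = 4.13e-12) and 0.59 for TDP1 (limma adjusted p = 6.70e-10). It was 0.36 for TOP3A (limma adjusted p = 3.14e-07) and 0.15 for TOP1 (limma adjusted p = 0.000208). On the lower side it was -0.30 for TOP2A (limma adjusted p = 3.16e-07) and -0.47 for TOP3B (limma adjusted p = 1.61e-08). After quantile normalization TOP1 was no longer called (0.067, limma adjusted p = 0.0578, over a range of 1.37e-06 to 0.0578). Comparisons of each drug with the control share the control libraries, whereas this one compares the 2 drugs directly.

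The normalized counts above depend on transcript length, so the levels of the 8 genes were ordered per kilobase of annotated exon. In the control the order was TOP2A (3933 ± 77.9 normalized counts per kilobase, SD, n = 4), TOP1 (3548 ± 39.7), TOP2B (1686 ± 78.0), TDP2 (1105 ± 34.2), TOP3A (659 ± 17.6), TOP1MT (374 ± 8.93), TOP3B (302 ± 9.25) and TDP1 (202 ± 11.9), and no neighbours overlapped. With MIT, TDP1 (366 ± 10.1) stood above TOP3B (219 ± 11.1), and the rest kept the control's order without overlap. With PYR, TOP3B (303 ± 12.9) came sixth, above TDP1 (244 ± 8.46) and TOP1MT (233 ± 10.8), and the last 2 overlapped. Of the summed level per kilobase of the 6 topoisomerases, TOP2A took 36.5% ± 0.568 with MIT, 49.3% ± 0.623 with PYR and 37.4% ± 0.342 in the control (SD, n = 4 each). TOP2B took 21.2% ± 0.920 with MIT, 10.2% ± 0.351 with PYR and 16.0% ± 0.537 in the control. With the longest coding transcript as the length, an alternative chosen after the data were seen, TOP1MT moved up to rank 5 in the control and with MIT and to rank 6 with PYR, and TDP2 passed TOP2B with PYR.

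**Figure D4:**
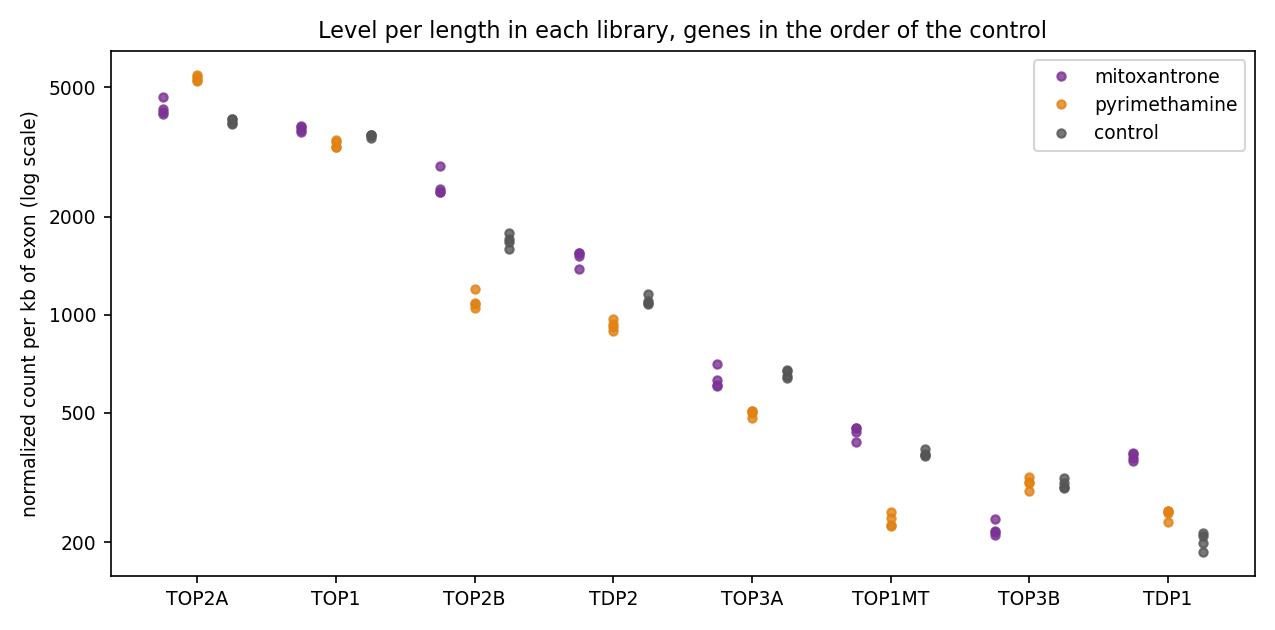
Normalized count per kilobase of exon (log axis) of each gene in the libraries of mitoxantrone, pyrimethamine and the control, genes ordered by their level in the control; each point is 1 library. TOP2A and TOP1 lead in all groups, and TDP1 is last in the control at 202 ± 11.9.

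Lists of genes that work beside the topoisomerases were counted in the same fit. They are read against the shares of all genes called, 69.3% with MIT (33.5% higher, 35.8% lower) and 53.3% with PYR (26.4% higher, 26.9% lower). They are also read against medians of all genes of -0.0080 with MIT and 0.0018 with PYR on the log2 scale. With equal library totals the median for MIT shifted by -0.10. Cohesin holds sister chromatids and shapes loops, CTCF anchors these loops, and TOP2B sits beside both on chromatin. Of 10 such genes, 9 were higher with MIT, 0 lower and 1 (STAG2) not called (median log2 change 0.55). With PYR 1 was higher, 8 were lower and 1 (NIPBL) was not called (median -0.34). STAG1, a cohesin subunit, had 5166 ± 229.8 normalized counts with MIT and 2308 ± 200.1 in the control (log2 change 1.16, limma adjusted p = 6.63e-14), and CTCF had 7058 ± 348 normalized counts with MIT and 4033 ± 82.7 in the control (log2 change 0.81). SMC3, a core ATPase of cohesin, had 4988 ± 291 normalized counts with PYR and 8231 ± 321 in the control (log2 change -0.72, limma adjusted p = 1.84e-11). CTCF had 2678 ± 35.7 with PYR (log2 change -0.59), while RAD21, the ring's cleavable subunit, rose by 0.11 on the log2 scale. With MIT against PYR, all 10 genes were higher, where 76.4% of all genes were called and 36.9% were higher.

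Condensin compacts mitotic chromosomes together with TOP2A. Of its 8 genes, 5 were higher with MIT, 1 lower and 2 not called (median log2 change 0.31), and with PYR 2 were higher, 4 lower and 2 not called (median -0.064). The shared core subunits SMC4 and SMC2 rose by log2 changes of 0.82 and 0.72 with MIT with changes of -0.31 and -0.30 with PYR, both called lower. NCAPD2 and NCAPG, of condensin I, rose by 0.65 and 0.50 on the log2 scale with PYR, while NCAPH of the same complex was not called (0.082). NCAPG2, of condensin II, had a log2 change of -0.29 with MIT and was the gene called lower there. It was also lower with PYR (-0.21). Of the same complex, NCAPD3 was higher with MIT (0.26) and not called with PYR (0.075). NCAPH2 was not called with MIT (0.086) and was lower with PYR (-0.20).

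Genes that clear DNA-protein adducts and mend break ends, the steps around TDP1 and TDP2, numbered 21. With MIT 11 were higher, 3 lower and 7 not called (median log2 change 0.11), and with PYR 2 were higher, 14 lower and 5 not called (median -0.18). The MIT median is about the size of the shift of all genes with equal library totals (-0.10). Directions in this list were counted on the deposited scale only. The ligase LIG3, which seals nicks beside XRCC1, had 3079.5 ± 126 normalized counts with MIT and 1399 ± 66.1 in the control (log2 change 1.14, limma adjusted p = 6.07e-13). FAM111A, a protease of DNA-protein crosslinks, fell with MIT to 507, against 1108 in the control (log2 change -1.13), and RBBP8, which starts end resection, had a log2 change of -0.23. With PYR, the scaffold XRCC1 had a log2 change of -0.64, called lower, whereas the crosslink protease SPRTN rose by 0.33 and the nuclease APEX2 by 0.11 on the log2 scale.

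Of 11 end joining genes, 10 passed the filter. With MIT 6 were higher, 3 lower and 1 (POLM) not called (median log2 change 0.25), led by the nuclease DCLRE1C at a log2 change of 0.70 and PAXX at 0.37, with TP53BP1 at -0.21 and PRKDC at -0.20 among the lower ones. With PYR 4 were higher and 6 lower (median -0.18), with the ligase LIG4 at a log2 change of 0.81 and its partner XRCC4 at 0.65 highest, and TP53BP1 at -0.51 and the polymerase POLM at -0.43 lowest. Partners of the type IA enzymes numbered 7. With MIT 3 were higher, 3 lower and 1 (FMR1) not called (median 0.037), and with PYR 0 were higher, 3 lower and 4 not called (median -0.081), or 5 called with equal library totals. TDRD3, the scaffold that binds TOP3B, had 1242 ± 74.7 normalized counts with MIT and 511 ± 54.8 in the control (log2 change 1.28, limma adjusted p = 1.49e-11), while TOP3B itself was lower. With PYR TDRD3 had 334 ± 32.0 normalized counts (log2 change -0.61). BLM and RMI2, of the complex that holds TOP3A, were lower with both drugs. Their log2 changes were -0.19 and -0.34 with MIT and -0.23 and -0.27 with PYR. RMI1, of the same complex, was called higher with MIT (log2 change 0.15) and was not called with PYR (-0.081). FXR1, an RNA-binding relative of FMR1, rose by 0.30 on the log2 scale with MIT.

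Factors known to bind motifs of the kinds searched before TOP2A, or to regulate genes of the late cell cycle, numbered 13. With MIT 6 were higher, 4 lower and 3 not called (median log2 change 0.13), and with PYR 2 were higher, 6 lower and 5 not called (median -0.050). The NF-Y subunit genes NFYA, NFYB and NFYC had log2 changes of 0.61, 0.13 and 0.44 with MIT, all called higher on the deposited scale. The change of NFYB (limma adjusted p = 0.0221) is near the size of the shift of all genes with equal library totals (-0.10). With PYR NFYB rose by 0.34 on the log2 scale, and NFYA and NFYC were lower at -0.36 and -0.29. SP1, which binds GC boxes, had log2 changes of 0.71 with MIT and -0.55 with PYR, and E2F4 rose by 0.71 with MIT. MYBL2 and LIN54, of the complexes that bind cell cycle elements, were lower with MIT at -0.49 and -0.42. E2F1 was lower with MIT (-0.27) and rose by 0.21 with PYR, and FOXM1 was not called with either drug. LIN9 was called lower with both, at -0.20 with MIT and -0.26 with PYR.

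**Figure D5:**
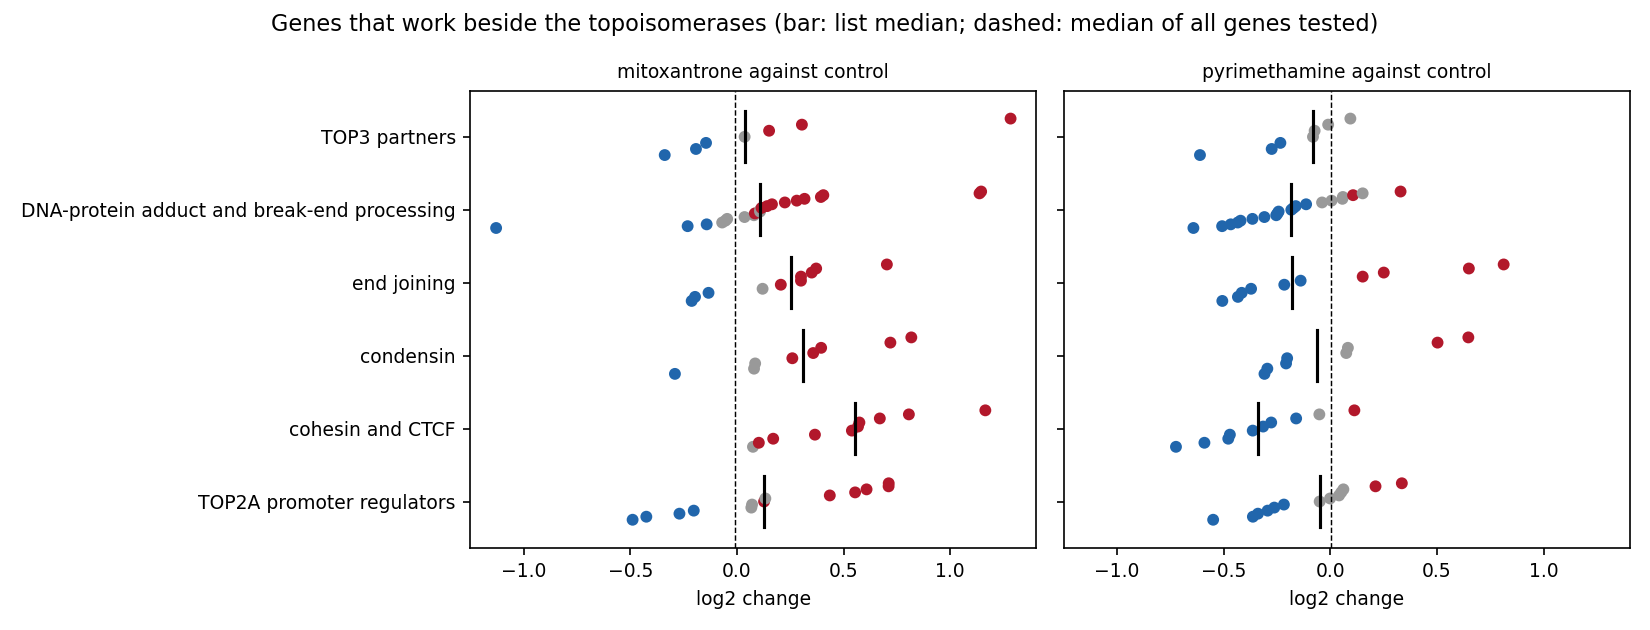
Log2 change of each gene (horizontal axis) of 6 related lists with mitoxantrone (left) and pyrimethamine (right) against the control; red is called higher, blue lower and grey not called, black bars are list medians and the dashed line is the median of all genes tested. The cohesin and CTCF list has a median of 0.55 with mitoxantrone and -0.34 with pyrimethamine.

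Genes with the most similar profile were ranked by Pearson's r of log2(normalized count + 1) over the 12 libraries, among 12096 other genes with a mean of at least 100. These r are descriptions: the points are 3 groups of 4 libraries that share their treatment, so any gene with the same order of groups scores high. For TOP2A they were ARHGEF39 (0.988), EXPH5 (0.987) and KIF14 (0.986); KIF14 is a kinesin of cytokinesis. TOP2B had LIMCH1 (0.999), GLI2 (0.996) and CYP4F11 (0.995), GLI2 being a transcription factor of Hedgehog signaling and CYP4F11 a fatty acid hydroxylase. LIMCH1 averaged 8154 normalized counts with MIT, 4319 with PYR and 5956 in the control. TOP1MT was nearest to RNF216 (0.994), ADAMTS16 (0.993) and LIG1 (0.992), the last being the ligase of Okazaki fragments. Nearest to TDP1 stood TIMM13 (0.994), PRDX1 (0.993) and YWHAG (0.991), which take in a mitochondrial import protein, a peroxiredoxin and a 14-3-3 protein. TDP2 had BLMH (0.994), SNHG3 (0.994) and UFL1 (0.991), TOP3A B4GALNT1 (0.986), EFNB2 (0.986) and TMEM97 (0.984), TOP3B FZD9 (0.989), PHYHIP (0.986) and SFXN3 (0.985) and TOP1 EVPLL (0.982), MARCHF8 (0.974) and MARK2 (0.974).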

How the data were processed

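Per the submitters' processing notes, the tools were STAR 2.6.90c, featureCounts 1.5.1, cutadapt 1.12 and FastQC 0.11.5, with hg38 and mm10 among the builds. The deposited values are a normalized signal: the authors' read counts per gene, divided by a size factor of each library. The tool behind these factors and the strand setting are not given in the sources used here. Multiplied back by the factor, 100.0% of values came within 0.01 of whole reads, whose sum is the depth. Median-of-ratios factors computed from these reads differed from the recovered factors by at most 1.03e-08%. Each is a library's median, over genes with reads in all 12 libraries, of reads relative to the geometric mean. On these reads edgeR called 11765 genes and DESeq2 11834 for MIT, and 9286 and 9318 for PYR.

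The 16950 genes that reached 10 in 4 or more libraries were tested with limma 3.58.1 (R 4.3.3) on log2(value + 1), over all 12 libraries, with treatment as the only term and a variance trend. Tests were two-sided with Benjamini-Hochberg adjustment over all tested genes. Log2 changes on this scale understate those of low genes. Exon lengths and coordinates are from GENCODE 29 on GRCh38, and promoters from RefSeq. Replicates of a group differed beyond counting noise (mean chi-square per gene 6.42 or more). The 8 genes and the lists were chosen with earlier results of these data known. The text names all 8 genes, up to 2 rises and 2 falls per list, and the 3 nearest profiles, with other list members chosen after their values were seen. Some genes that this rule would name are not reported here. Alternatives were other pseudocounts, filters, scalings, variance settings, samples and lengths, edgeR 4.0.16 and DESeq2 1.42.0 on recovered reads, a replicate block and each library left out. Figures were drawn with Python 3.11.15 and matplotlib 3.10.9.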

Additional observations from a re-analysis of the deposited data

Results flagged for a closer look

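In 4 of 39 groups of 4 libraries looked at (gene levels, ratios and the mitochondrial share), 1 library lay far from the other 3, where chance gives about 1 in 20. The ratios reuse the gene levels, and all groups come from the same libraries. They are therefore not independent, and the share is a description only. MIT replicate 1 had 17298 normalized counts of TOP2B, against 14369.7 to 14711 in the other MIT libraries. The same library had a mitochondrial share of 3.23% of reads, against 3.84% to 3.89% in the others, and the highest value of its group for 7 of the 8 genes, all but TOP3B. Control replicate 2 had 13042 normalized counts of TOP1, against 13325 to 13354. MIT replicate 3 had 5.21 TOP1 counts per TOP1MT count, against 4.89 to 4.92.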

How the results depend on the processing

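Over 24 changes (8 genes in 3 comparisons) and 456 alternative values, 437 kept the direction and the side of the threshold. With MIT against the control, equal library totals gave TOP2A 0.034 (no longer called), TOP3A -0.15 (called lower) and TOP1 -0.031, and quantile normalization gave TOP2A 0.0086 (no longer called) and TOP1 -0.029, where TOP1 was not called but its sign turned. DESeq2 called TOP1 higher at 0.072. TOP3A ranged from -0.10 to -0.029 with single libraries left out. With PYR against the control, TOP1 without a filter was -0.084 and no longer called, and with single libraries left out it ranged from -0.10 to -0.073. TOP3B with PYR was not called under any setting and turned negative with equal library totals (-0.052) and in edgeR (-0.0049), with -0.017 to 0.033 over libraries left out. With MIT against PYR, TOP1 under quantile normalization was 0.067 and no longer called. The cause of these shifts was not tested. Same-numbered libraries of different groups did not deviate together (12 correlations from -0.0133 to 0.0295), and with a replicate block all genes called were 11749 for MIT, 9057 for PYR and 12931 between the drugs, with no call of the 8 genes changed. Per kilobase, the ratio of TOP2A to TOP2B was 1.72 with MIT, 4.84 with PYR and 2.34 in the control, that of TOP1 to TOP1MT 8.58 with MIT, 14.4 with PYR and 9.49 in the control, that of TDP1 to TDP2 0.244 with MIT, 0.263 with PYR and 0.183 in the control, and that of TOP3A to TOP3B 2.91 with MIT, 1.64 with PYR and 2.18 in the control. The ratio with TOP1MT depends on the length used. Annotated exons of TOP1MT cover 6441 bases and its longest coding transcript 1982. By these lengths its control level was 374 and 1216 normalized counts per kilobase. Gene counts do not show protein level or enzyme activity.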

Other observations

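Set against each other, the drugs separated several genes that work beside the topoisomerases. TDRD3 had 1242 ± 74.7 normalized counts with MIT and 334 ± 32.0 with PYR (log2 change 1.89, limma adjusted p = 8.36e-15) and LIG3 3079.5 ± 126 normalized counts with MIT and 1177 ± 117 with PYR (log2 change 1.39; SD, n = 4 each). With MIT against PYR, STAG1 and CTCF had log2 changes of 1.64 and 1.40, and the condensin core genes SMC4 and SMC2 1.13 and 1.01. Lower with MIT than with PYR were FAM111A (-0.89), the LIG4 ligase gene (-0.46), MYBL2 (-0.55) and NCAPG (-0.42). Of the 21 adduct and break-end genes, 16 were higher, 4 lower and 1 not called. Of all genes, 76.4% were called in either direction, 36.9% higher and 39.5% lower.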
